A study of Mus musculus with 4 samples.

Results

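Chondrocytes, the cells that build cartilage, were isolated from the ribs of newborn mice and profiled by ATAC-Seq, in which Tn5 transposase cuts and tags DNA that nucleosomes leave accessible. The peaks described here lie far from any gene start but outside gene deserts. They are the WT peaks on the autosomes that overlap a peak of the deletion library by 1 bp or more. The WT summit also had to lie over 50 kb from every protein-coding transcription start site (TSS), outside all protein-coding gene bodies, in a gap between neighboring gene bodies shorter than 1 Mb. There were 12235 such distal intergenic peaks among 90971 WT peaks. Of the 88965 autosomal WT peaks, 85396 also had a deletion peak (96.0%). The other 73161 of these shared peaks lay inside gene bodies (32211), within 1 kb of a TSS (19283), in gaps at 1 to 50 kb from a TSS (18688), in gene deserts (2899) or beyond the outermost gene of a chromosome (80). Because members were chosen by the peak calls of both libraries, the values of WT and the deletion library are given as a description.

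The deletion library came from E160(delta/delta);E308(delta/delta) mice, which lack both copies of 2 elements upstream of Sox9, the gene of a transcription factor required for cartilage. The WT library carried neither deletion, and the study drew both genotypes from littermates. Cho replicate 1 came from rib chondrocytes whose labels name no genotype. It had no part in the choice of peaks and serves as a library outside the comparison. Each genotype had 1 library, so the comparison is of 2 libraries and has no replicate error. All 3 came from many cells, and more cells with an open site cannot be told apart from a site more open in each cell. At promoters, peaks stood in all 3 libraries for the cartilage genes Sox9, Col2a1, Hapln1, Col9a1 and Col11a1, in WT and the deletion library for Acan and Matn1, and in none for the blood, endothelial and skin markers Ptprc, Cdh5, Krt5 and Krt14. The fibroblast and bone gene Col1a1 also had a promoter peak in all 3, so fibroblast-like cells in the samples cannot be told apart from chondrocytes with an open Col1a1 promoter. The muscle gene Myod1 had one in both genotypes, with fold enrichments (summit over background, column 7 of the peak lists) of 5.15 (WT) and 6.76 (deletion), while Myf5, another muscle gene, had none in any library. The bone gene Sp7 had one in the deletion library alone, at 4.16.

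Open sites far from promoters are often enhancers, which bind transcription factors and act on genes across long stretches of sequence. AP-1, the dimer of FOS and JUN family proteins, binds and helps to open many such sites and answers growth factors, stress and culture. RUNX and TEAD factors often bind beside it, and RUNX2 and RUNX3 drive chondrocyte maturation. CTCF instead marks insulators and the anchors of chromatin loops. SOX factors bind in the minor groove of AT-rich DNA, and PITX factors are homeodomain proteins that also pattern the limb.

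The sequences show what such sites looked like at the base level. Each runs from 50 bp before to 50 bp after the WT summit on the plus strand of NCBIM37 (mm9), with the letters of 1 motif in capitals. The peaks are named by the genes on either side of the gap. The first set carries the AP-1 motif TGANTCA in gaps flanked by a gene of a transcription factor, a signaling receptor, a matrix protein or an epithelial factor. That gene is not always the nearest one. The Tas1r2 to Pax7 peak carries the motif at 2 positions.
Osr1 to Nt5c1b, chr12:9905350-9905450: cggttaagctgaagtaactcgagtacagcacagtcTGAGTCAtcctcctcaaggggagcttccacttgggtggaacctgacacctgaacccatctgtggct
Ptch1 to 0610007P08Rik, chr13:63851424-63851524: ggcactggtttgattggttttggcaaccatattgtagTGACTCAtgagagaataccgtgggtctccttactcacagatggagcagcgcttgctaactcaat
Btg1 to Dcn, chr10:96756806-96756906: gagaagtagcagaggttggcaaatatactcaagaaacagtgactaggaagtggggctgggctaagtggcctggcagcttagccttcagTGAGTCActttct
Postn to Fam48a, chr3:54345477-54345577: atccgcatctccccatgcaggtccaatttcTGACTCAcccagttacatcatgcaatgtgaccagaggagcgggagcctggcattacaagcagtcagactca
Tprg to Trp63, chr16:25532210-25532310: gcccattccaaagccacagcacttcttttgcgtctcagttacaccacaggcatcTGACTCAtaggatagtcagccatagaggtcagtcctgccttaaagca
Tas1r2 to Pax7, chr4:139272578-139272678: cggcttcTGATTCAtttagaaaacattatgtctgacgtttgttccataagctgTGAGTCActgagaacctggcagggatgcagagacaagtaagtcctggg
The second set shows the other motifs at peaks named below. The RUNX motif TGTGGTT, read here on the minus strand, stood at the summit of the peak between Sox9 and Slc39a11, the TEAD motif ACATTCC, also on the minus strand, stood at the peak between Prl5a1 and Sox4, and the CTCF motif (CCA, 2 bases of any kind, AG, 2 more of any kind, GGC), again on the minus strand, stood between Nkx2-2 and Pax1.
Sox9 to Slc39a11, chr11:113063047-113063147: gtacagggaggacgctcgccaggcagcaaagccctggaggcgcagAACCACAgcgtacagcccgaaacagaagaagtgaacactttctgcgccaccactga
Prl5a1 to Sox4, chr13:28965934-28966034: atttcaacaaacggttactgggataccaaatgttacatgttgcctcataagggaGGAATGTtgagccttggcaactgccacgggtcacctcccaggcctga
Nkx2-2 to Pax1, chr2:147133620-147133720: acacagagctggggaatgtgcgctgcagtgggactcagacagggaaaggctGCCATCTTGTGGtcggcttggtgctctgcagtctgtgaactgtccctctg

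The first question was where these peaks lay within the sequence open to them. The rule left 509.8 Mb of eligible sequence, in 3265 gaps, and 2147 of those gaps held at least 1 peak. The density was 24.0 peaks per Mb (95% Poisson interval 23.6 to 24.4, counting error only). The median gap with a peak held 3. The 371 gaps with 10 or more held 6363 peaks, or 52.0% of all. These 371 were a small part of the gaps by number, but long gaps offer more eligible sequence. The 352 gaps of 500 kb to 1 Mb held 223.0 of the 509.8 Mb. The part of gap length in the counts per gap was not tested.

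Density fell with distance from genes. It was 31.2 peaks per Mb at 50 to 100 kb from a TSS (30.4 to 32.1) and 23.6 at 100 to 200 kb (22.9 to 24.3). It was 17.9 at 200 to 300 kb, 15.8 at 300 to 400 kb and 10.9 beyond 400 kb (9.68 to 12.2). The intervals of neighboring distance classes did not overlap. Density also fell with the length of the gap, from 36.5 per Mb in gaps under 200 kb to 27.1 at 200 to 500 kb and 16.2 at 500 kb to 1 Mb. In gene deserts, the shared peaks over 50 kb from a TSS reached 7.09 per Mb (6.84 to 7.36). The median peak was 107.4 kb from its nearest TSS, and for 283 peaks (2.31%) that TSS belonged to neither flanking gene. Across the 19 autosomes the density ran from 19.3 per Mb on chromosome 7 to 29.6 on chromosome 11.

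**Figure D1:**
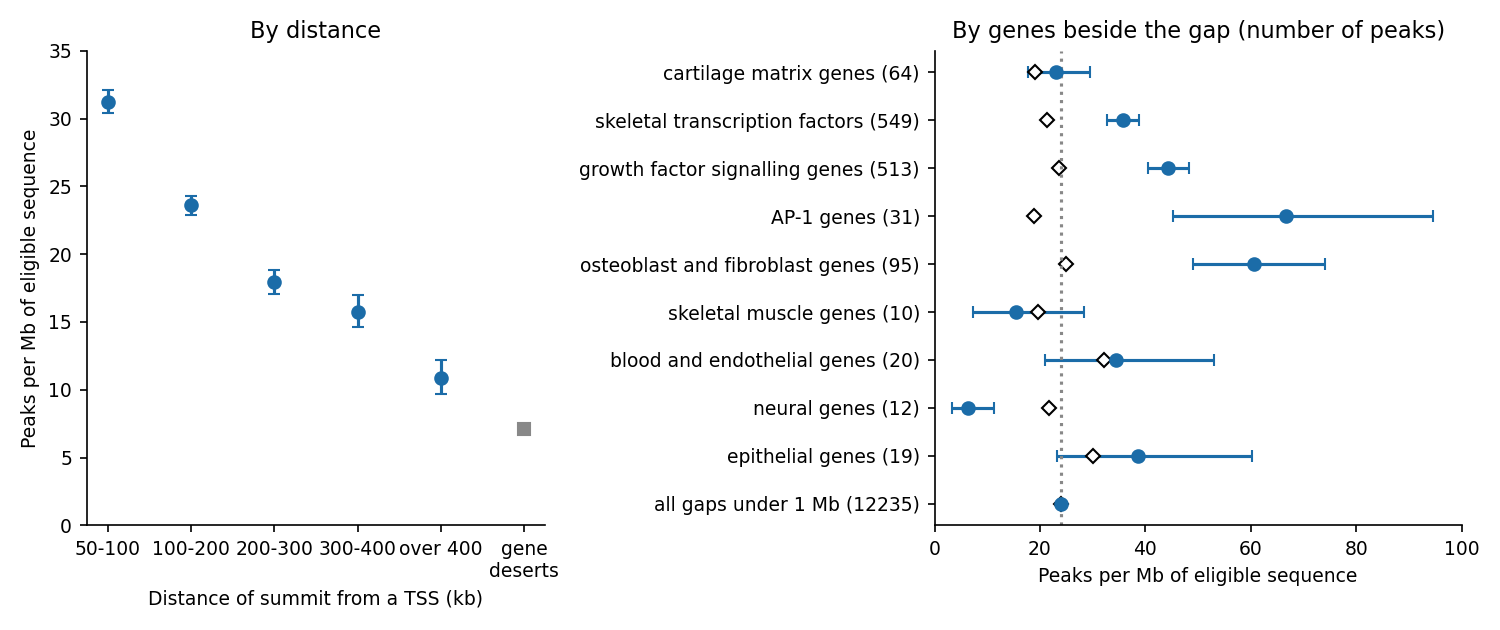
Peaks per Mb of eligible sequence, by distance of the summit from a TSS in kb (left; blue circles, distal intergenic peaks; gray square, shared peaks of gene deserts) and by the genes on either side of the gap (right; number of peaks in brackets). Bars are 95% Poisson intervals, the dotted line is the density over all gaps of 24.0, and open diamonds are the density over all gaps with the list's mix of gap length classes. Density falls from 31.2 to 10.9 with distance, and the whole intervals of AP-1, osteoblast and fibroblast, growth factor and skeletal transcription factor genes lie right of their diamonds while that of neural genes lies left.

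The genes that flanked the gaps differed in how many peaks stood beside them. Of 224 symbols in 9 gene lists, 221 were found, and 1311 peaks had a listed gene on at least 1 side. The count beside a gene also depends on how much eligible sequence it has, so counts do not rank genes by density. For each list the density is set beside that over all gaps with the same mix of gap lengths, because length alone moves it. Peaks beside genes of 1 list share gaps, so the Poisson intervals are too narrow for a statement about genes. Column 7 is not on 1 scale across the lists. Their background pileups were 0.361 tags in WT, 0.626 in the deletion library and 1.37 in Cho replicate 1. The order of a peak's 3 values can therefore change with the measure. At the Postn to Fam48a peak below, summit pileup over library background was 97.1, 78.3 and 46.0 in that order. Its column 7 values were 18.8, 19.0 and 27.03.

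Gaps beside skeletal transcription factor genes held 549 peaks, at 35.7 per Mb (32.8 to 38.8) against 21.4 over gaps of the same lengths. Of 41 such genes with eligible sequence, 39 had a peak. Only Osr2 and Tshz2 had none, with just 40.3 and 9.40 kb eligible beside them. Runx1 had 57, Osr1 had 41, and Sox9 had 37. Of these 37, 8 lay upstream toward Gm11678, in 250.6 kb of eligible sequence, and 29 downstream toward Slc39a11, in 410.1 kb. The upstream gap spans both deleted elements, E308 and E160. Neither could be a member because the deletion library lacks their sequence. Sox4 had 34, and the partners of Sox9 in cartilage, Sox5 and Sox6, had 29 and 22. The hedgehog effectors Gli3 and Gli2 had 28 and 25, and Runx2, which drives bone and hypertrophic cartilage, had 9. The density beside Runx2, with 215.8 kb of eligible sequence, was 41.7 per Mb. It was 36.0 beside Osr1, with 1140 kb, and 78.0 beside Runx1. Mef2c, a factor of hypertrophy, had 4 peaks in 505.2 kb.

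The strongest peak beside this group was 324.2 kb from Osr1, a regulator of limb and joint mesenchyme, at chr12:9905219-9905625 (Osr1 to Nt5c1b). Its fold enrichment was 22.7 in WT, 19.4 in the deletion library and 19.0 in Cho replicate 1. The peak beside Sox4 at chr13:28965878-28966182 (Prl5a1 to Sox4) had 18.8, 26.2 and 7.60, in the same order, so it was weakest in Cho replicate 1. The peak beside Gli3 at chr13:15937694-15938000 (Gli3 to Gm17394) had 18.1, 21.9 and 17.7. The peak of the Sox9 to Slc39a11 gap at chr11:113062829-113063305 lay 414.0 kb from the Sox9 gene body and 43.1 kb from that of Slc39a11. The nearest protein-coding TSS was that of Slc39a11, at 364.0 kb. The peak was 55 bp from the annotated start of the lincRNA 2610035D17Rik. Its fold enrichment was 18.1 in WT, 15.3 in the deletion library and 21.5 in Cho replicate 1.

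Growth factor signaling genes had 513 peaks, at 44.3 per Mb (40.5 to 48.3) against 23.7 over gaps of the same lengths, and all 43 with eligible sequence had at least 1. Among receptors, Fgfr2 had 50, Fgfr1 had 25 and Ptch1, the hedgehog receptor, had 16. Their densities, in that order, were 96.0, 117.8 and 112.6 per Mb. Among ligands, Tgfb2 had 28, Bmp2 and Fgf9 had 23 each, and Fgf18, which regulates growth plate chondrocytes, had 11. Ctgf, a matrix signaling protein, had 24. Of the secreted inhibitors, Dkk2 had 23 and the BMP antagonist Nog had 9. Pthlh, whose product delays hypertrophy, had 4.

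The strongest peak of this group lay in the Ptch1 to 0610007P08Rik gap at chr13:63851294-63851664, with a fold enrichment of 21.1 in WT, 22.4 in the deletion library and 13.5 in Cho replicate 1. In the Wdr11 to Fgfr2 gap the peak at chr7:136990605-136990986 had 19.7 in both WT and the deletion library and 19.0 in Cho replicate 1. The peak 65.2 kb from Wnt4 at chr4:136768128-136768405 (Zbtb40 to Wnt4) had 17.7 and 16.1 in the genotype libraries. No Cho replicate 1 peak overlapped it. Strong sites of both genotype libraries were thus found with and without a peak in Cho replicate 1.

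Cartilage matrix genes had fewer. Only 9 of the 25 found had eligible sequence, and 8 of these had 64 peaks, at 23.1 per Mb (17.8 to 29.5) against 19.0 over gaps of the same lengths. Decorin, Dcn, had 25, Col11a1 had 13, Matn1 had 9, Hapln1 had 7 and Acan, the gene of the main cartilage proteoglycan, had 5. By density the order of these genes differed. Acan, with 39.2 kb of eligible sequence, had 127.4 per Mb and Hapln1 had 38.1, against 32.8 for Dcn, 13.9 for Col11a1 and 11.6 for Matn1. The Isg20 to Acan peak at chr7:86135161-86135576, 63.0 kb from the Acan TSS, had a fold enrichment of 19.1 in WT, 18.2 in the deletion library and 13.1 in Cho replicate 1. The Btg1 to Dcn peak at chr10:96756617-96756950 had 16.8 and 19.6 in the genotype libraries, and the Edil3 to Hapln1 peak at chr13:89552444-89552595 had 12.5 and 13.5. Neither overlapped a Cho replicate 1 peak. The Prg4 to Hmcn1 peak at chr1:152387538-152387681, near the gene of lubricin, had 12.8, 15.9 and 6.33.

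Osteoblast and fibroblast genes had 95 peaks, at 60.5 per Mb (49.0 to 74.0) against 25 over gaps of the same lengths. Postn had 20, the fibrillar collagens Col5a2, Col5a1, Col3a1 and Col1a1 had 17, 13, 12 and 9, and the gene of osteopontin, Spp1, had 2. Only 9.79 kb was eligible beside Spp1, and the density was 168.2 per Mb beside Col1a1 and 92.8 beside Postn. The Postn to Fam48a peak at chr3:54345326-54345636 had a fold enrichment of 18.8 in WT, 19.0 in the deletion library and 27.03 in Cho replicate 1. The Bet1 to Col1a2 peak at chr6:4386512-4386795 had 15.9, 14.7 and 3.80. The Gulp1 to Col3a1 peak at chr1:45100093-45100541 had 15.9, 13.3 and 3.38, so both collagen sites stood far lower in the Cho list. In the Tnfsf8 to Tnc gap, beside tenascin C, the peak at chr4:63619529-63620038 had 15.3, 16.7 and 7.18. Of the peaks beside this list, 57.9% overlapped Cho replicate 1 (47.3% to 68.0%). The Col1a1 promoter peak named above belongs to the same list, and the part of fibroblast-like cells in its density was not tested.

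Of the 10 genes of AP-1 itself, only 3 had eligible sequence, in 3 gaps with 0.466 Mb in all, of which 405.3 kb lay beside Jun. They had 31 peaks, 23 of them beside Jun, 5 beside Atf3 and 3 beside Fos. The density was 66.6 per Mb (45.2 to 94.5) against 18.8 over gaps of the same lengths, and rests mostly on the Jun gap. That gap, of 505.3 kb, lay just over a class edge. Its class had 16.2 peaks per Mb and the class of 200 to 500 kb had 27.1, so the 18.8 depends on the edge. The Jun to Fggy peak at chr4:94984597-94984894 had a fold enrichment of 17.4 in WT, 15.6 in the deletion library and 14.8 in Cho replicate 1. The Fos to Jdp2 peak at chr12:86882180-86882492 had 15.5, 16.01 and 8.87, and the Atf3 to Nenf peak had 9.64 and 7.46 in the genotype libraries, with no Cho replicate 1 peak.

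Genes of other tissues split. Neural genes had 12 peaks, at 6.43 per Mb (3.32 to 11.2) against 21.8 over gaps of the same lengths. Neurod2, Olig1, Pou3f2 and Pax6 were among those with none, in 1.14, 3.01, 4.24 and 169.6 kb of eligible sequence. Beside all of these but Pax6 there was little sequence in which a peak could lie. Sox2 had 5, all in Cho replicate 1 as well, and its strongest, at chr3:34232557-34232780 (Dnajc19 to Sox2), had a fold enrichment of 10.6 in WT, 17.1 in the deletion library and 49.4 in Cho replicate 1. The Nkx2-2 to Pax1 peak with the CTCF motif, at chr2:147133603-147133735, had 8.09, 14.1 and 5.07, and Pax1 at its other side is a factor of the axial skeleton. Skeletal muscle genes had 10 peaks, at 15.4 per Mb (7.39 to 28.3) against 19.7, with 9 beside Pax3 in 549.4 kb of eligible sequence. Myod1 and Myf5 had none, but only 15.039 and 11.0 kb was eligible beside them. Epithelial genes had 19, at 38.5 per Mb (23.2 to 60.2) against 30.0, and blood and endothelial genes had 20, at 34.4 (21.0 to 53.1) against 32.1.

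Of the peaks beside each list, between 42.2% (cartilage matrix genes, 29.9% to 55.2%) and 9 of 10 (muscle genes) overlapped Cho replicate 1, where the share was 50.6% over all distal intergenic peaks and 59.6% over all shared peaks. It was 46.6% beside skeletal transcription factor genes (42.4% to 50.9%) and 45.4% beside growth factor signaling genes (41.1% to 49.8%). Ptch1 had 13 of 16 in Cho replicate 1 and Tgfb2 had 19 of 28, whereas Gdf10 had 1 of 16 and Wnt11 had 0 of 5, genes singled out after their values were seen.

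Single sites beside genes of other tissues were nevertheless strong. The Tprg to Trp63 peak at chr16:25532038-25532372 lay 151.6 kb from Trp63, the gene of the epithelial factor p63. Its fold enrichment was 19.7 in WT, 18.4 in the deletion library and 23.2 in Cho replicate 1. The Cd34 to Cd46 peak at chr1:196860235-196860464 had 22.4, 23.0 and 27.4, and lay 2866 bp from the annotated start of Mir29b-2, a microRNA known to target collagen transcripts. The Tas1r2 to Pax7 peak at chr4:139272480-139272714 had 14.5, 15.5 and 14.4. Beside Epcam, an epithelial adhesion gene, the peak at chr17:87970786-87971202 (Calm2 to Epcam) had 16.3, 15.3 and 30.4. Beside Pax3, a factor of muscle progenitors and neural crest, the peak at chr1:78012933-78013298 (Epha4 to Pax3) had 11.7, 14.8 and 4.65. Each of these 5 was called in all 3 libraries although Trp63, Cd34 and Pax7 are best known in skin, blood vessel and muscle progenitors.

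By number, the fullest gaps were Rasgrp1 to Thbs1 with 57 peaks, Runx1 to Setd4 with 54, Wdr11 to Fgfr2 with 50 and Gadd45g to Diras2 with 45. They were followed by 1500009L16Rik to Nuak1 with 44, Rps24 to Zmiz1 with 41, and Tnp1 to Tns1 and 9430031J16Rik to Irs1 with 40 each. Prok2 to Rybp and Irf2bp2 to Tomm20 also had 40. Thbs1 encodes a matrix protein and Irs1 carries the signal of the insulin and IGF receptors. In Rasgrp1 to Thbs1, 26 of 57 peaks overlapped Cho replicate 1, and its strongest, at chr2:117493947-117494165, had a fold enrichment of 16.5 in WT, 16.8 in the deletion library and 11.4 in Cho replicate 1. In Wdr11 to Fgfr2, 17 of 50 did, and in 1500009L16Rik to Nuak1, 14 of 44. The strongest peak of Runx1 to Setd4, at chr16:93293250-93293661, had 17.7, 19.6 and 5.07, and that of 1500009L16Rik to Nuak1, at chr10:83511360-83511793, had 20.03, 19.8 and 6.33. Those of Tnp1 to Tns1 (16.4 and 14.4) and 9430031J16Rik to Irs1 (12.1 and 14.4) had no Cho replicate 1 peak, so even the fullest gaps differed in whether their strongest site recurred. The density in the first 8 gaps ran from 47.5 to 96.0 per Mb.

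Some of the densest gaps lay in repeated sequence. Of the gaps with 10 or more peaks, Ezh2 to Pdia4 had the highest density, 366.7 per Mb, from 25 peaks. These were looked at more closely after their values were seen. In 24 of the 25 every 31-base word sampled around the summit occurred at least 2 times in the genome. In Hrh1 to Atg7 the same held for 19 of 20 peaks, and in Fcgr1 to BC107364 for 11 of 12. Only 3, 0 and 1 of the peaks in these gaps overlapped Cho replicate 1. Genome-wide, 244 of the distal intergenic peaks (1.99%) lay in such repeated sequence, where the share over all shared peaks was 1.87%. Of the 244, 4.51% overlapped Cho replicate 1 against 51.5% of the rest. Over all shared peaks these were 8.34% and 60.5%. By contrast, Gm6772 to 6430527G18Rik, with 13 peaks and 268.6 per Mb, and Tpm1 to Tln2, with 22 and 186.9, held 0 and 1 peak in repeated sequence, and 11 and 10 of their peaks overlapped Cho replicate 1.

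Column 7 in both libraries was compared next. The deletion or Cho replicate 1 value of a peak is that of the strongest peak overlapping its interval, whose summit can lie elsewhere. Neighboring WT peaks can thus carry the value of the same deletion peak. The deletion summit lay within 50 bp of the WT summit at 72.1% of the distal intergenic peaks and 73.4% of all shared peaks. The part of differing summits in the ratios was not tested. The deletion library had 169591 peaks in all and a background pileup of 0.626 tags, against 90971 peaks and 0.361 tags in WT, and the part of this gap in depth was not tested. The median of column 7 over the distal intergenic peaks was 6.62 in WT, with the middle 50% from 5.15 to 9.51, and 9.75 in the deletion library, with the middle 50% from 7.10 to 12.8. The highest values were 36.2 and 39.4. The deletion value was the higher at 9960 peaks (81.4%), where the share over all shared peaks was 75.2%, and the median log2 ratio of deletion to WT was 0.37, with the middle 50% from 0.09 to 0.68. Over promoters the median log2 ratio was 0.09 and over all shared peaks 0.28. Fold enrichment is (pileup + 1) over (background + 1), which gives a lower value to the same multiple of background in a shallower library. With the summit pileup over the library background in its place, the deletion value was the higher at 53.3% of the peaks and the median log2 ratio was 0.05, against 49.0% and -0.01 over all shared peaks.

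At a ratio of 2 or more, 1129 of the distal intergenic peaks (9.23%) were higher in the deletion library, where the share over all shared peaks was 7.77%. In the other direction it was 22 (0.180%), where the share was 0.0679%. With pileup over background the counts were 425 (3.47%) and 286 (2.34%), where the shares over all shared peaks were 3.60% and 1.42%, so the members' share at least 2-fold higher in the deletion library was then not above that of all shared peaks. The rule used this contrast, and no test was made. The 1129 peaks had a median WT pileup of 6 tags and a median deletion pileup of 22, against 10 and 18 at the peaks within 2-fold. Each pair of pileups was given a 95% binomial interval of its deletion to WT ratio. The interval lay wholly above 1 at 168 peaks (1.37%) and wholly below 1 at 103 (0.842%). Over all shared peaks these shares were 2.002% and 1.37%. Counting error alone gives some such intervals among so many peaks. No correction for their number was made, so these peaks are not called different.

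The peaks highest in the deletion library relative to WT were weak in WT, which a choice by high ratio favors. The Bcl2l11 to Gm355 peak stood at 3.15 (WT) and 19.6 (deletion), on pileups of 4 and 34 tags. The Rbms1 to Tank peak had 3.22 and 17.8, and the strongest Cho replicate 1 peak overlapping it had 27.9. The Pid1 to Dner peak had 3.91, 17.0 and, in Cho replicate 1, 30.8. The Tcl1 to Bdkrb2 peak had 4.15, 20.5 and 4.22, and the Kcne4 to Gm5830 peak had 3.88 and 17.5. Pileup over background gave ratios of 4.89 (1.75 to 19.0), 5.43 (2.49 to 14.0), 3.95 (1.78 to 10.3), 4.28 (1.94 to 11.2) and 4.03 (1.70 to 11.6), in the order named. The peaks were picked for their extreme ratios, and these intervals do not allow for that choice.

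The peaks lowest in the deletion library relative to WT were of moderate to high enrichment in WT, which a choice by low ratio favors. The interval given for the first of them likewise does not allow for the choice. The A230006K03Rik to Ube2nl peak stood at 16.9 (WT) and 5.53 (deletion), a pileup ratio of 0.21 (0.08 to 0.49). The Prok2 to Rybp peak had 12.5 and 4.30, and the Gm17333 to Cxadr peak had 16.1 and 6.28. The Gm9873 to 1700101G07Rik peak had 13.6 and 5.53, and the Speer4c to Cacna2d1 peak had 10.3 and 4.30. None of the 5 had a Cho replicate 1 peak. Of all 22 peaks at least 2-fold higher in WT, 0 overlapped Cho replicate 1 (exact 95% binomial interval 0% to 15.4%), against 59.3% of the 1129 higher in the deletion library (56.3% to 62.1%) and 49.8% of the rest.

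**Figure D2:**
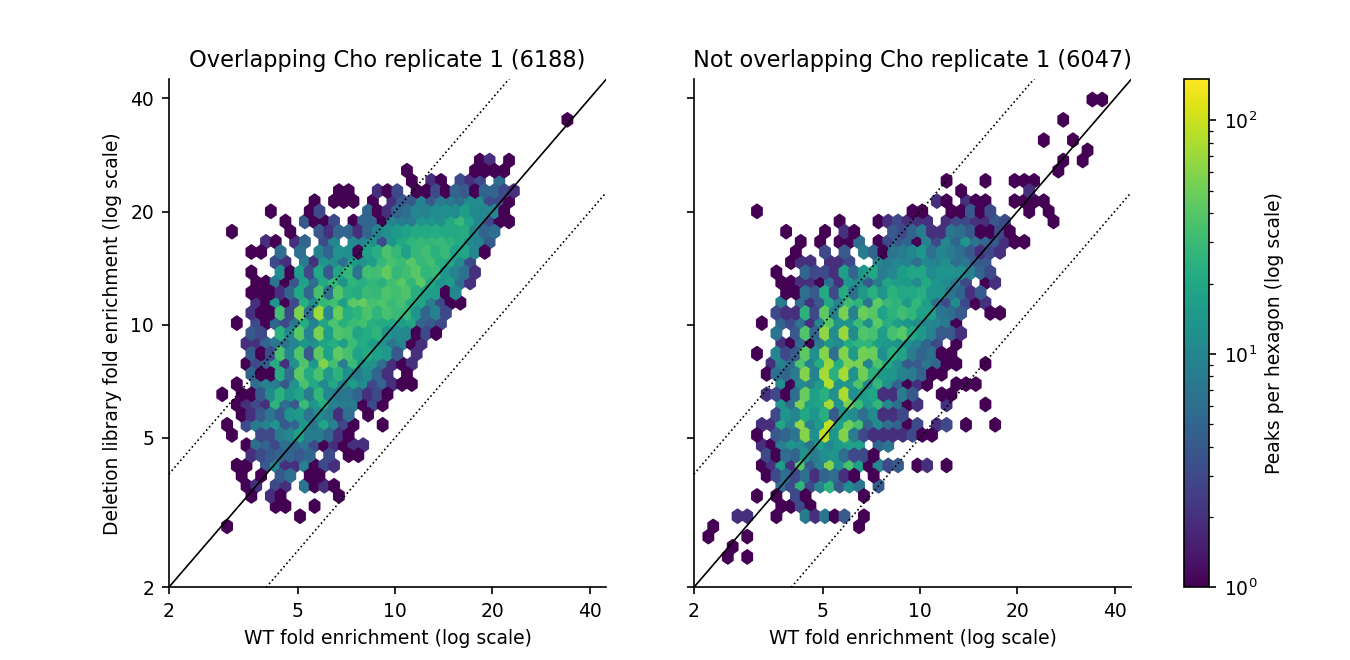
Fold enrichment of each distal intergenic peak in WT (horizontal) and the deletion library (vertical), both on log scales, for the 6188 peaks that overlap Cho replicate 1 (left) and the 6047 that do not (right). Color counts peaks per hexagon, the solid line marks equal values and dotted lines mark 2-fold; most peaks lie above the solid line, and those below the lower dotted line and most of those above 25 in WT are in the right panel.

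Cho replicate 1 was then used to ask which of these peaks recur in a library that played no part in the choice. Of the 12235, 6188 (50.6%, exact 95% binomial interval 49.7% to 51.5%) overlapped a Cho replicate 1 peak, where the share over all shared peaks was 59.6%. The share was 52.2% for intergenic peaks at 1 to 50 kb (51.5% to 52.9%), 51.8% inside gene bodies (51.2% to 52.3%), 51.1% in gene deserts (49.2% to 52.9%) and 86.7% at promoters. The interval of the distal intergenic peaks overlapped those of gene bodies and gene deserts and lay far below promoters. Where they overlapped, the median Cho fold enrichment was 8.02. Over these 6188 peaks Spearman's rho of fold enrichment was 0.25 between WT and Cho replicate 1. Over all 12235 it was 0.68 between WT and the deletion library, which the choice by both calls does not leave independent.

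The share depended on the strength of the peak in WT. It was 36.1% at a WT fold enrichment under 5, 46.3% at 5 to 10, 71.2% at 10 to 15 and 84.5% at 15 to 20 (80.9% to 87.6%, n = 477). It was 77.1% at 20 to 25 (62.7% to 88.0%, n = 48). At 25 or more it was 1 of 10. At 20 to 25 the share was 79.8% of 109 intergenic peaks at 1 to 50 kb and 71.7% of 92 in gene bodies, but 5 of 15 in gene deserts. The other non-promoter classes were also low at the top, with 32.3% of 31 intergenic peaks at 1 to 50 kb, 4 of 25 in gene bodies and 0 of 16 in gene deserts at a WT fold enrichment of 25 or more, while all 40 promoter peaks of that strength overlapped.

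**Figure D3:**
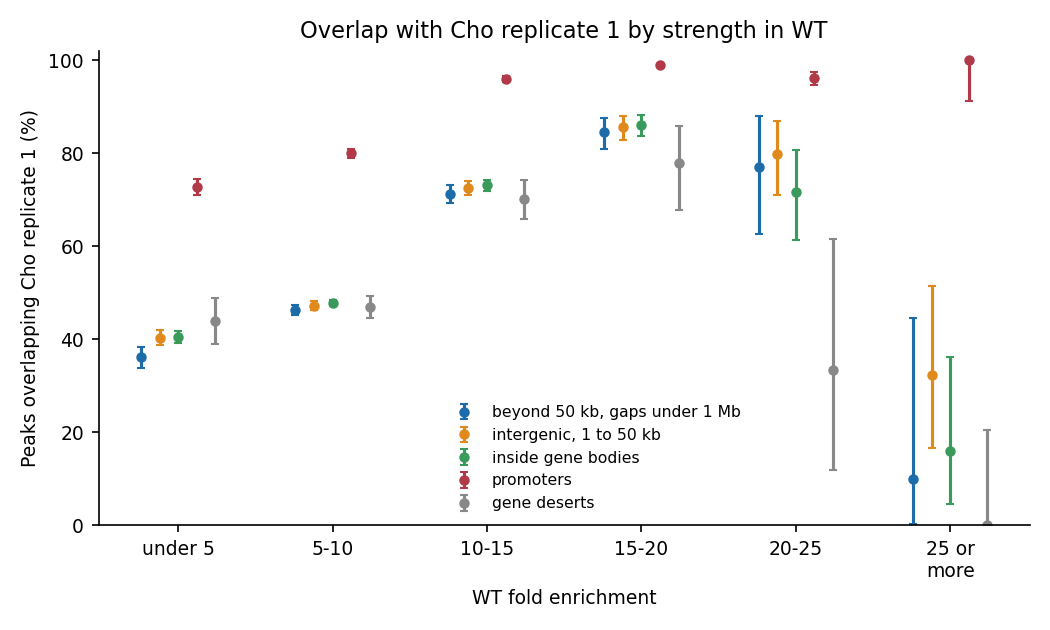
Share of shared peaks that overlap a Cho replicate 1 peak (vertical, %) by WT fold enrichment (horizontal), for distal intergenic peaks (beyond 50 kb, gaps under 1 Mb) and 4 other classes of shared peak; points are shares with exact 95% binomial intervals. The distal intergenic share rises from 36.1% to 84.5% and then drops to 1 of 10 at 25 or more.

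The strongest peaks that Cho replicate 1 lacked differed little in column 7 between the genotype libraries. The 4930548G14Rik to Csmd3 peak, at chr15:47371525-47371687, reached 36.2 in WT and 38.6 in the deletion. The 4930433N12Rik to Alkbh8 peak, at chr9:3258801-3258934, had 34.6 and 39.4 and lay 168 bp from an annotated non-coding start, that of AC140318.1. The Tnks to Ppp1r3b peak, at chr8:36197928-36198080, had 30.8 and 27.1, the Epm2a to Gm9797 peak had 29.0 and 31.1 and the Bambi to Lyzl1 peak had 32.6 and 30.0. By pileup over background the deletion to WT ratio of these 5 ran from 0.55 to 0.72, with the interval below 1 at the Csmd3, Tnks and Bambi peaks. The Bambi to Lyzl1 peak resembles mitochondrial DNA, as did 8 of the distal intergenic peaks in all, of which 2 overlapped Cho replicate 1. One of those 2, Eea1 to Btg1, had 23.6 in WT, 22.9 in the deletion library and 141.5 in Cho replicate 1. The mitochondrial origin of tags at these 8 peaks was not tested.

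The strongest peaks that Cho replicate 1 shared were led by Mc2r to 4930546C10Rik, with 34.6 in WT, 36.0 in the deletion library and 10.6 in Cho replicate 1. After Eea1 to Btg1 came 6720489N17Rik to Fbp2 with 23.3, 22.0 and 13.9, and Osr1 to Nt5c1b and Cd34 to Cd46, described above. The Usp3 to Car12 peak had 22.5, 21.5 and 4.22. The Pde7a to Dnajc5b peak had 21.9, 26.6 and 24.1, and the 4930522L14Rik to Gm15446 peak had 21.8, 23.4 and 28.7. The Csrp2bp to 6330439K17Rik peak, 40 bp from the start of Zfp133-ps, had 21.8, 21.1 and 17.7. Tet2 to Cxxc4, with 21.6, 24.1 and 20.3, stood beside Tet2, whose product oxidizes methylated DNA. In 4 of these 10 an AP-1 match lay within 100 bp of the summit.

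Short sequence motifs at the summit also divided the peaks by their overlap with Cho replicate 1. The AP-1 motif TGANTCA, which reads the same on both strands, was found within 100 bp of the summit in 3177 distal intergenic peaks (25.97%, 25.2% to 26.8%), where the share over all shared peaks was 19.9%. It was 6.47% in windows 5 kb to either side (6.17% to 6.79%). It was 22.0% in intergenic peaks at 1 to 50 kb, 24.2% in gene bodies, 29.0% in gene deserts and 5.31% at promoters. AP-1 matches thus became more frequent from promoters to gene deserts, with the distal intergenic peaks between.

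Peaks with an AP-1 match overlapped Cho replicate 1 in 73.0% of cases (71.4% to 74.5%), and peaks without in 42.7% (41.7% to 43.8%). With 1 match it was 70.2% (68.4% to 71.9%), and with 2 or more, 91.3% of 423 (88.1% to 93.8%). It was 77.4% with the nearest match within 25 bp of the summit, 72.3% at 26 to 50 bp and 65.9% at 51 to 97 bp. The intervals of the nearest and farthest classes did not overlap. A split chosen after seeing values, by the middle base of the motif, gave 76.7% for C or G (74.96% to 78.3%) and 59.4% for A or T (55.6% to 63.1%).

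The difference was present at every WT strength up to 20. Under 5 it was 57.5% with a match and 29.6% without. It was 69.3% against 38.7% at 5 to 10, 88.0% against 64.3% at 10 to 15, and 95.7% against 77.4% at 15 to 20. None of the 4 pairs of intervals overlapped. At promoters the intervals overlapped, with 84.7% for a match (82.3% to 86.8%) and 86.9% without (86.4% to 87.3%). In intergenic peaks at 1 to 50 kb it was 72.8% against 46.4%, and in gene deserts 72.0% against 42.5%. Peaks with an AP-1 match had a median log2 ratio of deletion to WT of 0.49, against 0.33 without, and 14.3% of them were at least 2-fold higher in the deletion library against 7.44%. Over all shared peaks the same shares were 12.8% and 6.53%. That ratio is from the contrast the rule used and is a description.

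**Figure D4:**
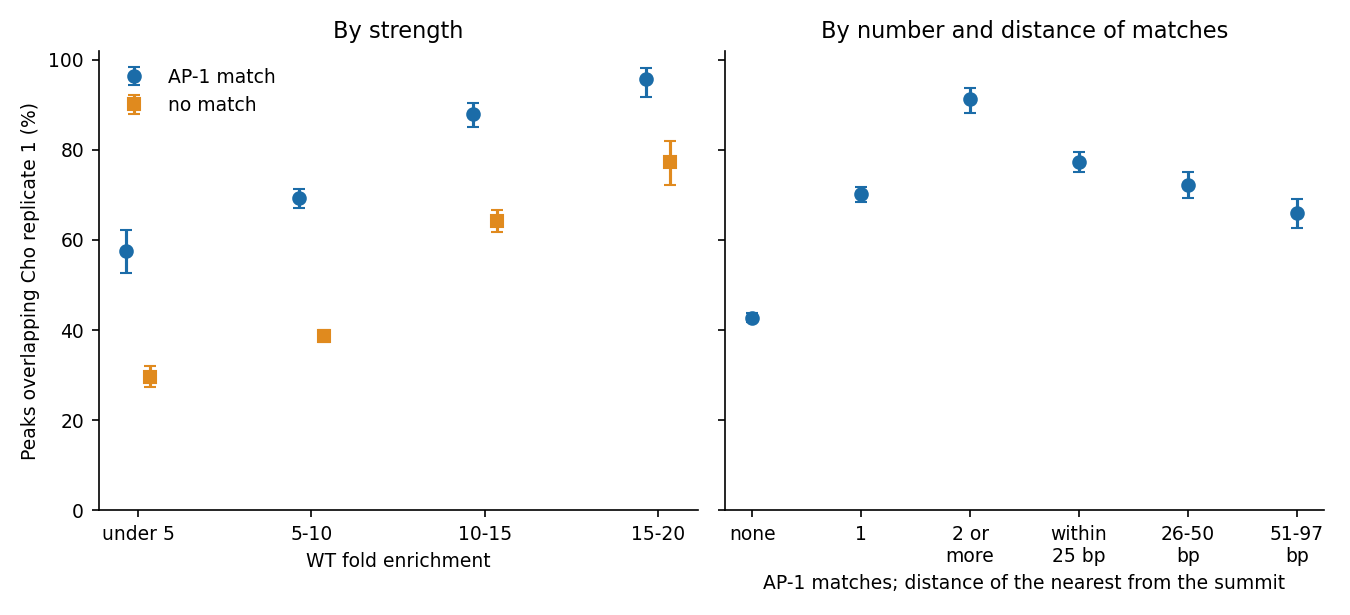
Share of distal intergenic peaks that overlap Cho replicate 1 (vertical, %), by WT fold enrichment with and without an AP-1 match (left) and by the number of matches and the distance of the nearest from the summit (right); points are shares with exact 95% binomial intervals. Peaks with a match lie above those without in all 4 strength classes, and 2 or more matches give 91.3%.

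CTCF and C/EBP matches went the other way. The CTCF motif was found in 655 distal intergenic peaks (5.35%, 4.96% to 5.77%), where the share over all shared peaks was 7.10%. Windows 5 kb away held it in 0.981%. It was 11.4% in intergenic peaks at 1 to 50 kb (11.0% to 11.9%), more often than in the distal intergenic peaks, and 3.73% in gene deserts (3.07% to 4.48%). Peaks with a CTCF match overlapped Cho replicate 1 less often than those without, 42.9% (39.1% to 46.8%) against 51.01% (50.1% to 51.9%). The same direction held at 1 to 50 kb (40.5% against 53.7%) and in gene bodies (38.6% against 52.9%).

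RUNX matches, searched on both strands like the motifs that follow, stood in 10.5% of distal intergenic peaks, 8.01% of all shared peaks and 4.60% of windows 5 kb away. TEAD matches stood in 8.58%, 6.39% and 2.98%, and matches to the C/EBP motif TTGCNNAA in 11.8%, 9.36% and 8.62%. With a C/EBP match 46.6% overlapped Cho replicate 1 (44.0% to 49.2%), and without one 51.1% (50.2% to 52.1%). Peaks with TEAD overlapped Cho replicate 1 in 58.9% of cases (55.8% to 61.9%) and those without in 49.8%. Among peaks without AP-1 the share with TEAD was 52.6% and with RUNX 47.0%, against 42.5% in the 5126 peaks with none of the 8 motifs. With AP-1 and TEAD together it was 80.7% (75.02% to 85.6%), and with AP-1 and RUNX 76.4%.

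The SOX motif AACAANG and the PITX motif TAATCC were less frequent at the peaks than beside them. SOX matches stood in 9.78% of distal intergenic peaks (9.26% to 10.3%) and 12.8% of windows 5 kb away (12.4% to 13.2%), and PITX matches in 5.13% and 7.51%. Over all shared peaks these were 8.16% and 4.55%. Median GC content was 48.3% at the peaks and 43.8% in the windows beside them, and its part in these shares was not tested. Cho replicate 1 overlap was 49.5% with a SOX match and 50.7% without, and 48.2% with a PITX match and 50.7% without, with intervals that overlapped. The NFI palindrome, TTGGC and GCCAA with 5 bases of any kind between them, was found in only 3 distal intergenic peaks.

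**Figure D5:**
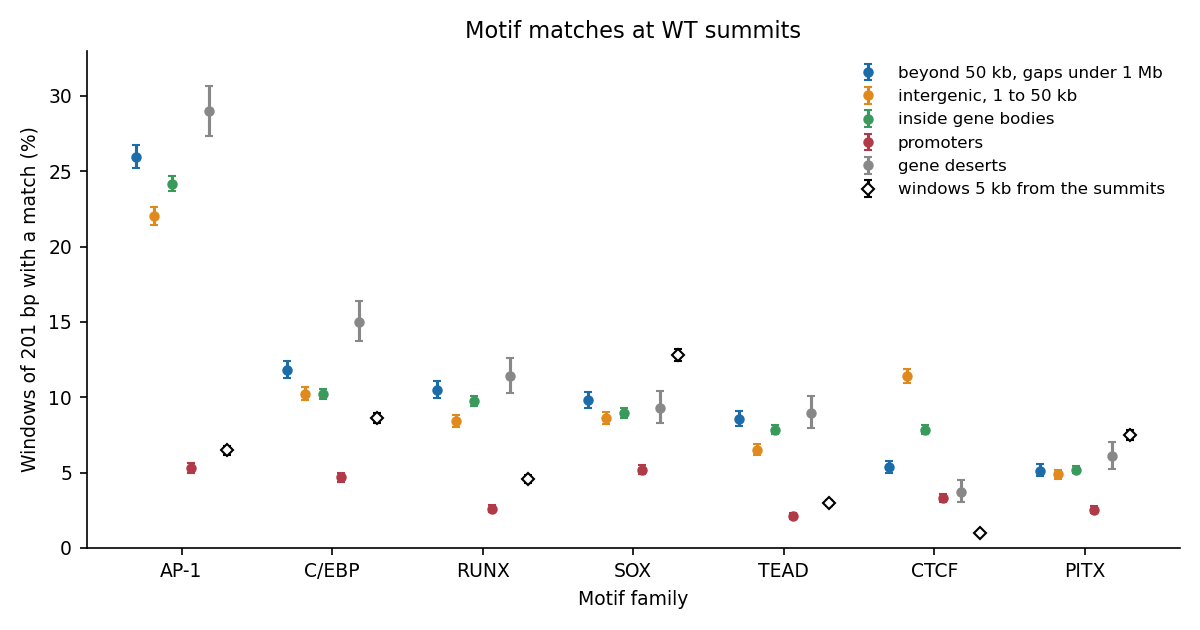
Share of windows reaching 100 bp to each side with a motif match (vertical, %) for 7 motif families, at the summits of distal intergenic peaks (blue), of 4 other classes of shared peak, and in windows 5 kb from the distal intergenic summits (open diamonds); bars are exact 95% binomial intervals, and the NFI motif, at 3 peaks, is left out. AP-1 has the highest share at the distal intergenic peaks, 25.97%, and SOX and PITX shares are highest in the windows beside them.

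Of the 12887 WT peaks that met the position rule, 652 (5.06%) had no deletion peak. Their median WT fold enrichment was 5.15, and 8.59% of them overlapped Cho replicate 1 (6.55% to 11.0%). The deletion library had 26705 peaks under the same position rule, of which 44.5% overlapped a distal intergenic peak as chosen here, and Cho replicate 1 had 11381, of which 50.3% did. Both other lists thus held many sites of this kind outside the 12235.

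At the edges of the rule, the nearest peak to a TSS was 50007 bp from that of Fam46c (Fam46c to Man1a2), at 6.62 (WT) and 8.61 (deletion). The shared peak just outside, at 49999 bp in the Foxp4 to 1700067P10Rik gap, had 10.7 and 17.9. The longest gap kept was Rbfox1 to Cldn26, of 996796 bp, with a peak at 5.15 and 6.15, and the shortest desert left out was Zfp516 to Tshz1, of 1006312 bp, with 5.02 and 5.58. The farthest peak lay 876.9 kb from a TSS, in the 4930452B06Rik to Fhit gap, with 5.88 in WT, 10.5 in the deletion library and 6.33 in Cho replicate 1.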

How the data were processed

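ATAC-Seq peak lists of 4 libraries were provided, and 3 were used. Per the methods and the submitters' processing notes, the authors cleaned reads with fastp, aligned them to mm9 with Bowtie2 2.4.4, removed duplicates with Picard (2.20.7 in the notes, which also name SAMtools 1.9) and called peaks with MACS2 2.2.4 at a q-value of 0.05, 1 list per library. The deposited lists give fold enrichment at the summit (column 7, a ratio), -log10 p-values and -log10 q-values, and a whole-number score, 10-fold the -log10 q-value with decimals dropped. The Cho replicate 2 list has intervals that end past mm9 chromosome ends and was not used here. The lists hold no read totals, so the depth of each library is unknown.

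WT summits were placed against the protein-coding genes of the NCBIM37 annotation. Cho replicate 1 entries that shared an interval were counted once, with the highest value. Summit pileups were solved from fold enrichment and p-value, and 100% of WT and deletion entries and 99.9% of Cho replicate 1 entries gave a whole pileup. Shares carry 95% Clopper-Pearson intervals, densities exact Poisson intervals, and both cover counting error only. With 1 library per genotype no test was made, and nothing was shown about spread between animals. Motifs were searched within 100 bp of summits on both strands. Repeated sequence was called where all 5 sampled 31-base words of a window occurred at least 2 times, and likeness to mitochondrial DNA with blastn 2.17.0 at an E-value of 1e-10. Python 3.11.15, pandas 2.3.3, scipy 1.17.1 and pysam 0.24.0 were used, and the scripts were tested on simulated data.

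The members and lists were chosen with earlier results of these data known. Peaks named were the 10 strongest in WT that overlap Cho replicate 1, the 5 strongest that do not, those of the 8 gaps with most peaks, up to 4 per gene list, the 5 highest and 5 lowest deletion to WT ratios at a fold enrichment of 5 or more in either library, the farthest peak, and those beside the 50 kb and 1 Mb limits, with at most 1 per gap where strength ranked them. Other names were chosen after values were seen. Overlap width, summit distance, q-value limits, TSS and gap limits, pileup in place of fold enrichment and window size were tried as alternatives. A few listed genes and 1 peak that the rule names are not reported here.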

Additional observations from a re-analysis of the deposited data

How the results depend on the processing

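No paired analysis was possible because each genotype had 1 library, and leaving out a replicate was not possible for the same reason. Among the recomputed values, only the median log2 ratio and the differences for AP-1 and CTCF could change sign, and none did. Counts, shares and densities cannot. List densities and shares by strength were not recomputed. With summits over 100 kb from a TSS the number of peaks was 6607, the density 20.04 per Mb and the Cho replicate 1 share 49.6%. That share was 48.8% at an overlap of 50% or more of the WT interval, 45.9% with the Cho summit within 150 bp, 40.5% with Cho peaks at q below 1e-05, 56.3% with WT peaks at q below 1e-05, and 51.5% without repeated sequence, an alternative chosen after seeing the data. Density was 17.0 per Mb at q below 1e-05 in both libraries and 23.5 without repeated sequence. The median log2 ratio was 0.0514 with pileup over background, 0.83 with -log10 q-values, 0.32 at WT q below 1e-05 and 0.29 after taking off the promoter median. The count at least 2-fold higher in the deletion library was 425 with pileup over background and 453 at WT q below 1e-05, and that higher in WT was 286 with pileup over background. Within 50 bp of the summit the motif shares were 18.6% for AP-1, 4.41% for CTCF, 4.66% for SOX, 6.25% for RUNX, 5.22% for TEAD, 6.15% for C/EBP and 2.403% for PITX, and CTCF was 5.95% at WT q below 1e-05. The difference in Cho replicate 1 share with and without AP-1, 30.2 percentage points, and that for CTCF, -8.11, kept their directions under every alternative run. The causes of these shifts were not tested beyond the changed setting. One library per genotype and unknown depth limit every comparison of WT with the deletion library.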

Other observations

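Some distal intergenic peaks lay at starts of non-coding genes, which the rule did not consider. Within 1 kb of such a start were 240 peaks (1.962%), of which 58.3% overlapped Cho replicate 1 (exact 95% binomial interval 51.8% to 64.6%) against 50.4% of the others (49.5% to 51.3%). The 61 peaks at lincRNA starts overlapped in 85.2% of cases (73.8% to 93.0%), the 67 at processed transcript starts in 52.2%, the 28 at miRNA starts in 60.7% and the 43 at pseudogene starts in 34.9% (21.0% to 50.9%). The Sox9 to Slc39a11 peak at the start of 2610035D17Rik is one of the lincRNA group.

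CpG-rich windows formed another group. Of the distal intergenic peaks, 2689 (22.0%) had 5 or more CpG within 100 bp of the summit, where the share over all shared peaks was 39.0%. These 2689 overlapped Cho replicate 1 in 54.4% of cases (52.5% to 56.3%), against 49.5% of the others (48.5% to 50.5%). They held an AP-1 match in 15.8% against 28.8%. These splits were chosen after values were seen and carry no test.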
